A study of Mus musculus with 12 samples.

Results

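The genes of glucose uptake, glycolysis and lactate handling were followed step by step in Ocy454 cells, an osteocyte line made from long bones of mice. They are 38 genes of the 37583 Ensembl gene IDs counted, chosen by gene ID from a list of 37 symbols plus Pkm, which older annotation names Pkm2. The list was drawn up by pathway step, and 37 of the 38 had enough reads to be tested. Slc16a7, which encodes a monocarboxylate transporter, had 1 count in 1 control static library and 1 count in each of 2 DKO static libraries and was not tested.

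Glucose enters a cell through facilitative transporters and is trapped by hexokinase as glucose 6-phosphate. Phosphofructokinase commits it to glycolysis, and the enzymes below convert it to pyruvate. Pyruvate is either reduced by lactate dehydrogenase and exported as lactate through monocarboxylate transporters, or oxidised in mitochondria by pyruvate dehydrogenase, which the PDK kinases switch off. Many of these genes are textbook targets of hypoxia-inducible factor (HIF), and bone-forming cells are known to rely heavily on glycolysis.

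Control cells, labelled as original cells, and DKO cells, labelled as carrying a deletion of HDAC4 and HDAC5, were either left static or put under fluid flow shear stress (FFSS), which lasted 3 h. The deleted genes encode class IIa histone deacetylases, repressors of transcription that shuttle into the nucleus. There were 4 groups of 3 libraries. Per the study's methods, all cells came from 1 subclone of Ocy454 carrying a temperature-sensitive T antigen and were matured at 37 °C, guide experiments used cells expressing Cas9, with control cells given a virus carrying no guide, and FFSS was applied by orbital rotation on a heated platform. All control libraries came from one cell line and all DKO libraries from another, so an effect of the deletion and a difference between lines cannot be told apart. The labels do not say that replicates were separate cultures, and p-values measure the spread between these libraries.

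Libraries held between 17.6 and 19.2 M reads assigned to genes, and the floor of 3 counts corresponded to 0.156 to 0.171 counts per 1 M assigned reads (CPM, printed below after TMM scaling). Gene-level counts do not show whether a guide cut: Hdac5 was at 127 to 141 CPM in control static and 80.2 to 90.8 in DKO static libraries, but at 71.1 to 90.2 in control FFSS and 92.4 to 93.3 in DKO FFSS libraries, and Hdac4 (ENSMUSG00000026313) was at 23.9 to 42.6 in control and 12.1 to 16.96 in DKO libraries, with a second Hdac4 ID (ENSMUSG00000073617) at 19.7 to 31.1 and 16.1 to 18.1. Control FFSS replicate 1 stood apart from replicates 2 and 3, with a chi-square per degree of freedom of 64.9 and 59.1, against 2.03 to 6.60 for every other pair of replicates. Reads outside genes made up 5.10 to 5.21% in control static libraries, 5.87% in control FFSS replicate 1, 9.19 and 10.04% in replicates 2 and 3, 7.07 to 7.14% in DKO static and 7.93 to 8.55% in DKO FFSS libraries. The 7 osteoblast markers summed to 30506 to 36884 CPM in control static, 10590 to 31300 in control FFSS, and 96330 to 107754 in DKO libraries. In static cells only 3 of the 7 passed as higher in DKO cells (Col1a1, Col1a2 and Bglap), and under FFSS 7 did. Of all genes 27.0% passed as higher in each condition. Of the 6 osteocyte markers, Sost, Dmp1, Phex and Mepe were called higher in DKO cells and Pdpn, an early osteocyte marker, lower, at 27.6 to 51.3 CPM in control and 4.999 to 7.96 in DKO libraries. Sost, the gene for sclerostin, was between 0.0977 and 12.4 CPM in control but between 1741 and 2097 in DKO libraries. The 5 chondrocyte markers summed to 50.9 to 103 CPM in control and 2016 to 2964 in DKO libraries. Other lists had lower sums in DKO cells: the 4 neuronal markers, nearly all of it Tubb3, summed to 103 to 119.9 CPM in control static, 38.6 to 117 in control FFSS and 8.34 to 12.3 in DKO libraries, and the 5 macrophage or osteoclast markers to 67.3 to 105 in control and 55.6 to 60.7 in DKO libraries. The 5 adipocyte markers summed to 1.73 to 2.53 CPM in control and 0.280 to 1.28 in DKO libraries. Only 1 of them, Fabp4, was tested, and it was called lower in DKO cells in both conditions. Tubb3 and the macrophage marker Cd68 were called lower in DKO cells in both conditions. Of the 3 macrophage or osteoclast markers tested, 2 passed as lower in DKO static cells. Csf1r, also of that list, went the other way: it was called higher there, and with FFSS in control cells. In bulk RNA, fewer cells of a kind and less RNA per cell cannot be told apart, and the part of these shifts in the results below was not tested.

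Levels of different genes were compared per kilobase of exon, and 4 enzymes, of aldolase, triosephosphate isomerase, pyruvate kinase and lactate dehydrogenase, stood at the top. In control static cells Pkm, the pyruvate kinase of most tissues, was highest at 1325 ± 17.3 CPM per kb (SD, n = 3). It was followed by Ldha, the lactate dehydrogenase subunit that favours lactate, at 926 ± 5.73, the triosephosphate isomerase Tpi1 at 844 ± 12.5 and the aldolase Aldoa at 689.7 ± 18.5. These 4 neighbours each differed by more than their spread, which was not so of the next pair, the isomerase Gpi1 at 156 ± 3.58 and the glucose transporter Slc2a1 at 154 ± 7.29 CPM per kb. Lowest among the genes tested were the transporters Slc2a3 (1.13 ± 0.210) and Slc2a4 (0.692 ± 0.0426), and Ldhb, the heart-type lactate dehydrogenase subunit, at 0.267 ± 0.118 CPM per kb.

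Some of these levels were understated by the counting, which leaves out reads that match several places. In 30 of the 38 genes more than 90% of the 50-base stretches of the exons occur once in the genome. The share was 8.87% in Pgam1, 31.7% in Pgk1, 49.8% in Gapdh and 59.8% in Pkm. It was 73.3% in Ldhb, 79.3% in Eno1, 82.3% in Tpi1 and 83.0% in Ldha. When only the stretches that occur once were taken as length, Pkm was still highest in control static cells at 2939 CPM per kb, and Pgam1 moved from 22.6 to 285 CPM per kb. This second length was chosen after seeing the data. A fold change between groups compares a gene with itself and is not altered by this scale. However, copies of parts of these 8 genes elsewhere in the genome can exchange reads with them. Their values are uncertain in that respect, and the shares were lowest in Pgam1, Pgk1, Gapdh and Pkm.

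To see what FFSS did to this pathway, control FFSS cells were first compared with control static cells. Glucose uptake, glycolysis and lactate genes were predominantly lower after FFSS. The summed share of assigned reads taken by the 38 genes was 1.47 ± 0.0218% in control static and 0.927 ± 0.193% in control FFSS libraries (SD, n = 3 each). Of the 37 tested, 22 passed as lower and 3 as higher (quasi-likelihood test of edgeR, adjusted p under 0.05 by Benjamini and Hochberg over all 14904 genes tested). Over all genes tested, 18.1% passed as lower and 17.7% as higher. The median log2 fold change was −0.52 over the 37 and 0.0073 over all genes. Scaling by library totals alone raised the second median to 0.13, and then 19 of the 37 passed as lower and 4 as higher, while over all genes 1675 passed as lower and 4096 as higher in place of 2705 and 2633. With the additional limit of more than a 2-fold change, under which a gene is said to be called, 5 were called lower (Slc16a3, Slc2a1, Pfkl, Pdk1 and Slc2a4) and 0 higher, where 1.97% of all genes were called lower and 3.96% higher.

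**Figure D1:**
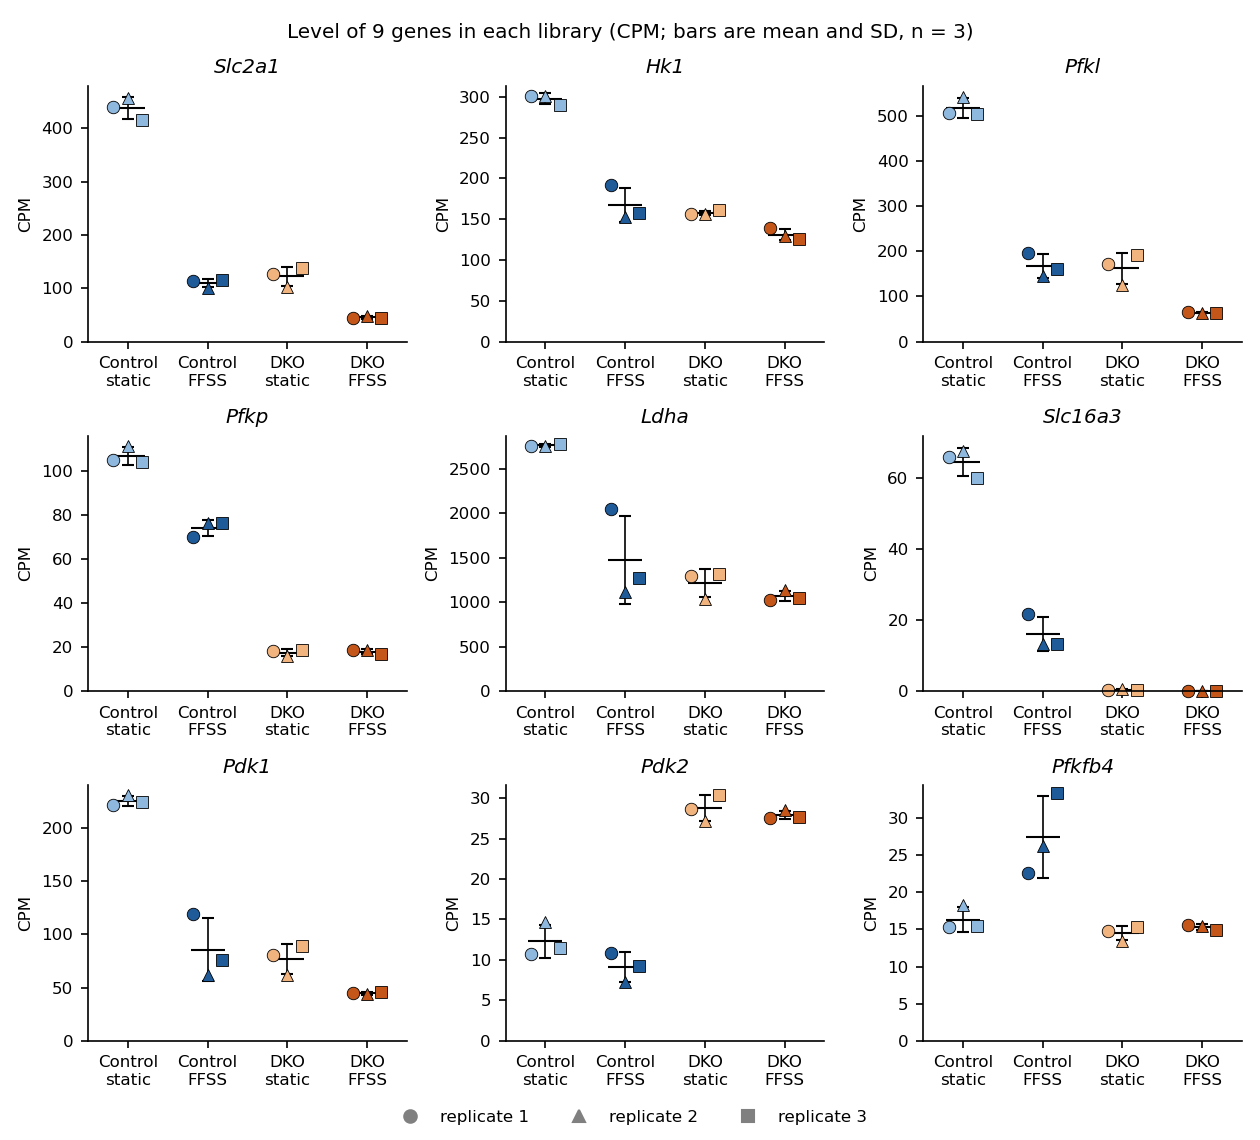
Level of 9 genes in CPM (y axis, linear from 0) in each of the 12 libraries, by group (x axis). Symbols are replicates 1 to 3, and bars are the mean and SD. For Slc2a1, Pfkl, Ldha, Slc16a3 and Pdk1 all control FFSS libraries lie below all control static libraries, and for Ldha, Slc16a3 and Pdk1 control FFSS replicate 1 is the highest of its group.

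At the point of entry, Slc2a1 (GLUT1; ENSMUSG00000028645, mm9 chromosome 4, 118781316 to 118809935), the transporter for basal glucose uptake, was at 441, 457 and 416 CPM in control static libraries. It was at 114, 101 and 115 CPM in control FFSS libraries. The groups were far apart, and the 3 FFSS libraries were alike, with replicate 1 between the others. The log2 fold change was −1.99 (SE 0.09, adjusted p in edgeR = 2.83e-08), 3.98-fold lower. Slc2a4 (GLUT4), the insulin-responsive transporter of muscle and fat, was scarce, at 1.96, 2.08 and 1.84 CPM in static and 1.23, 0.391 and 0.743 CPM in FFSS libraries, where its lowest library held 8 counts. Its groups did not overlap either, and its log2 fold change was −1.32 (SE 0.34, adjusted p in edgeR = 0.00937). Slc2a3 (GLUT3), a high-affinity transporter known from neurons, fell by less (log2 fold change −0.64, SE 0.19, adjusted p in edgeR = 0.0186). Slc2a3 no longer passed in 4 of 22 alternative fits and Slc2a4 in 1, against 0 for Slc2a1.

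Both hexokinases, which trap glucose in the cell, fell. Hk1, the constitutive form, was at 301, 301 and 289.6 CPM in static and 192, 153 and 157 CPM in FFSS libraries, a log2 fold change of −0.83 (SE 0.08, adjusted p in edgeR = 7.8e-06). Hk2, the inducible form, was at 144, 133 and 134 CPM in static and 70.9, 105 and 91.7 CPM in FFSS libraries. For Hk2 replicate 1 was the lowest FFSS library, the reverse of Ldha below, and the log2 fold change was −0.62 (SE 0.12, adjusted p in edgeR = 0.00222).

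In upper glycolysis 6 of 10 genes passed as lower and 1 as higher. Pfkl, the liver-type subunit of phosphofructokinase (ENSMUSG00000020277, mm9 chromosome 10, 77449692 to 77472828), was at 506, 542 and 503 CPM in static and 197, 146 and 160.1 CPM in FFSS libraries. It fell 3.09-fold, with a log2 fold change of −1.63 (SE 0.14, adjusted p in edgeR = 1.65e-05). The muscle-type subunit Pfkm (−0.75) and the platelet-type subunit Pfkp (−0.52) fell by less, each with SE 0.07. Senp1, a gene on the other strand that overlaps Pfkm without shared exon bases, had −0.0095. Gpi1, which isomerises glucose 6-phosphate, Aldoa and Tpi1 fell by 0.81, 0.95 and 0.90 on the log2 scale, each with replicate 1 well above replicates 2 and 3. Aldoa, for example, was at 1349 CPM in FFSS replicate 1 against 718 and 879.8 in replicates 2 and 3, and at 1853 to 1954 CPM in static libraries.

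The bifunctional PFKFB enzymes set the level of fructose 2,6-bisphosphate, the activator of phosphofructokinase, and 1 of the 3 rose. Pfkfb4 was at 15.3, 18.2 and 15.5 CPM in static and 22.6, 26.3 and 33.4 CPM in FFSS libraries. It rose 1.68-fold without overlap of the groups, with a log2 fold change of 0.75 (SE 0.12, adjusted p in edgeR = 0.000685). With the share of reads outside genes in the model it had 0.36 and did not pass (adjusted p in edgeR = 0.081). Pfkfb2 (0.0016), which shares 154 exon bases with Yod1 on the other strand, and Pfkfb3 (−0.23) did not pass the test, although Pfkfb3 passed as lower without control FFSS replicate 1 (−0.38). Aldoc, the brain-type aldolase, did not pass either, with a log2 fold change of −1.09 and an SE of 0.52, and its FFSS libraries disagreed: replicate 1, at 54.7 CPM, lay within the static range of 52.2 to 59.2 CPM, whereas replicates 2 and 3 were at 11.5 and 12.6 CPM. It passed as lower with limma-voom and without control FFSS replicate 1.

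In lower glycolysis 5 of 8 genes passed as lower. These were the phosphoglycerate kinase Pgk1 (log2 fold change −0.93), the phosphoglycerate mutase Pgam1 (−0.94), the enolases Eno1 (−0.82) and Eno3 (−0.26), and Pkm (−0.65). The groups of Eno3 overlapped. Eno3 no longer passed in 7 of 22 alternative fits, Pkm in 6, Pgk1 and Eno1 in 1 each and Pgam1 in 0. Gapdh, the oxidising step and a common reference gene, had a log2 fold change of −0.50 (SE 0.19) that did not pass (adjusted p in edgeR = 0.0634), although its groups did not overlap, at 284 to 299.7 CPM in static and 159 to 271 CPM in FFSS libraries. It passed as lower with DESeq2, with limma-voom and without control FFSS replicate 1. The neuronal enolase Eno2 (0.46, SE 0.26) and the muscle mutase Pgam2 (0.37, SE 0.19) had positive values that did not pass. Eno2 was split like Aldoc, at 14.5 CPM in FFSS replicate 1, below the static range of 18.9 to 22.0 CPM, and at 30.8 and 38.3 CPM in replicates 2 and 3, above it.

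At the lactate step the exporter changed most. Slc16a3 (MCT4; ENSMUSG00000025161, mm9 chromosome 11, 120809794 to 120822182), which exports lactate from highly glycolytic cells, was at 65.9, 67.6 and 60.1 CPM in static and 21.6, 13.3 and 13.4 CPM in FFSS libraries. It fell 4.01-fold, with a log2 fold change of −2.003 (SE 0.15, adjusted p in edgeR = 2.56e-06). The 3′ part of Slc16a3 lies against Csnk1d, a casein kinase gene on the other strand, with 831 shared exon bases or 15.6% of its exons. By the default rule of HTSeq without strand, reads there count for neither gene, and Csnk1d itself had a log2 fold change of −0.038 (adjusted p in edgeR = 0.540). Slc16a1 (MCT1), the transporter that can also import lactate, was at 151 to 159 CPM in static and 147 to 162 CPM in FFSS libraries and did not pass (−0.017, SE 0.05). Ldha was at 2749, 2754 and 2781 CPM in static and 2043, 1109 and 1269 CPM in FFSS libraries, with a log2 fold change of −0.91 (SE 0.19, adjusted p in edgeR = 0.00483). Ldhb had between 5 and 16 counts in every control library and a log2 fold change of 0.15 (SE 0.49).

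Among the genes of pyruvate entry, 3 of 6 passed as lower. Pdk1, the PDH kinase classed as a HIF target (ENSMUSG00000006494, mm9 chromosome 2, 71711281 to 71741915), was at 221, 231 and 225 CPM in static and 119, 62.0 and 76.0 CPM in FFSS libraries. It fell 2.63-fold, with a log2 fold change of −1.40 (SE 0.21, adjusted p in edgeR = 0.00108). Pdk2 (−0.43) and Pdk3 (−0.39) fell by less, while Pdk4 (0.20), the pyruvate dehydrogenase subunit Pdha1 (−0.067) and the pyruvate carboxylase Pcx (−0.17) did not pass. The groups of Pdk2 overlapped, and Pdk2 no longer passed in 6 of 22 alternative fits, against 1 for Pdk3. Lrfn4, on the other strand within the span of Pcx but sharing no exon bases with it, had 0.13. The pentose phosphate branch, which makes NADPH and ribose, went the other way in its oxidative part. G6pdx, its first enzyme, was at 87.1, 92.6 and 90.9 CPM in static and 122, 108 and 105 CPM in FFSS libraries, a log2 fold change of 0.31 (SE 0.06, adjusted p in edgeR = 0.00193), and Pgd, the next dehydrogenase, had 0.22 (SE 0.07, adjusted p in edgeR = 0.0233). In the non-oxidative part Tkt had −0.19 (adjusted p in edgeR = 0.0271) and Taldo1 −0.032, which did not pass. The groups of Pgd overlapped. Pgd no longer passed in 4 of 22 alternative fits and Tkt in 8, against 0 for G6pdx. G6pdx shares 418 exon bases with Ikbkg on the other strand, and Ikbkg had a log2 fold change of −0.18.

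**Figure D2:**
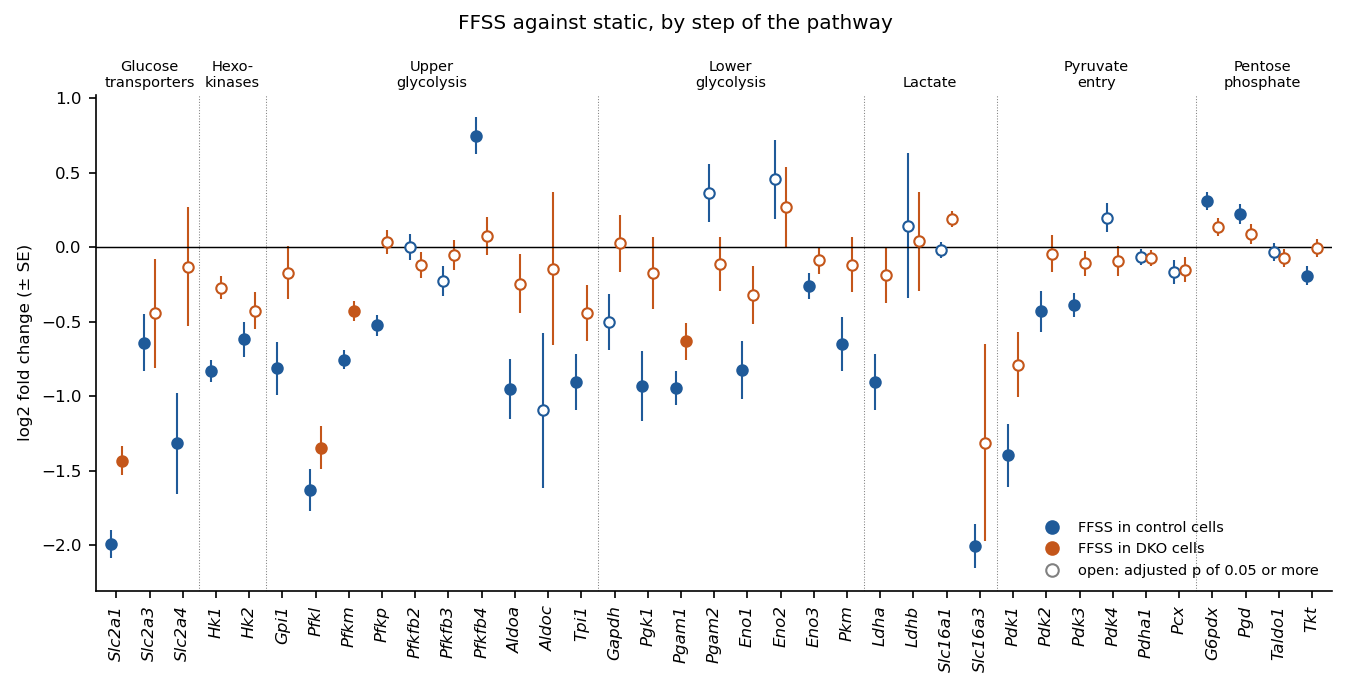
Log2 fold change of FFSS against static (y axis, ± SE) for the 37 genes tested, in pathway order (x axis), in control and in DKO cells. Filled points passed an adjusted p under 0.05. In control cells 22 points are filled below 0 and 3 above, and in DKO cells 4 are filled, all below 0.

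These values depended on control FFSS replicate 1, which lay nearer to the static group than the other 2 FFSS libraries did. The median over the 37 genes of its log2 difference from the static mean was −0.38, against −0.77 and −0.48 in replicates 2 and 3, and it was more than 2-fold lower for 3 genes against 15 and 13. Without this library 26 genes passed as lower and 5 as higher, where 28.3% and 26.7% of all genes did. The called genes then numbered 13 lower, where 4.46% of all genes were called lower, and 0 higher, where 6.86% were. Slc2a1 was little affected, with a log2 fold change of −2.02 without it, whereas Ldha moved to −1.22, Pdk1 to −1.71, Slc16a3 to −2.27 and Aldoc to −2.21. Eno2 (0.76) and Pdk4 (0.33) passed as higher without it and did not with it, although Pdk4 also passed when all libraries were scaled by their totals alone. When each library's share of reads outside genes, which was also lowest in control static and highest in control FFSS replicates 2 and 3, was added to the model, 10 genes passed as lower and 2 as higher, where 8.51% and 6.86% of all genes did. Of the 25 genes that had passed 14 no longer did: Slc2a3, Slc2a4, Gpi1, Pfkfb4, Aldoa, Tpi1, Pgk1, Eno1, Eno3, Pkm, Ldha, Pdk2, Pdk3 and Tkt. Pgk1 then had −0.27, Pkm −0.11 and Ldha −0.35. Of the called genes Slc2a1, Pfkl, Slc16a3 and Pdk1 were among the 10, and Eno2 was among them although its value without the added term was positive. Which of these measures goes with the other was not tested.

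**Figure D3:**
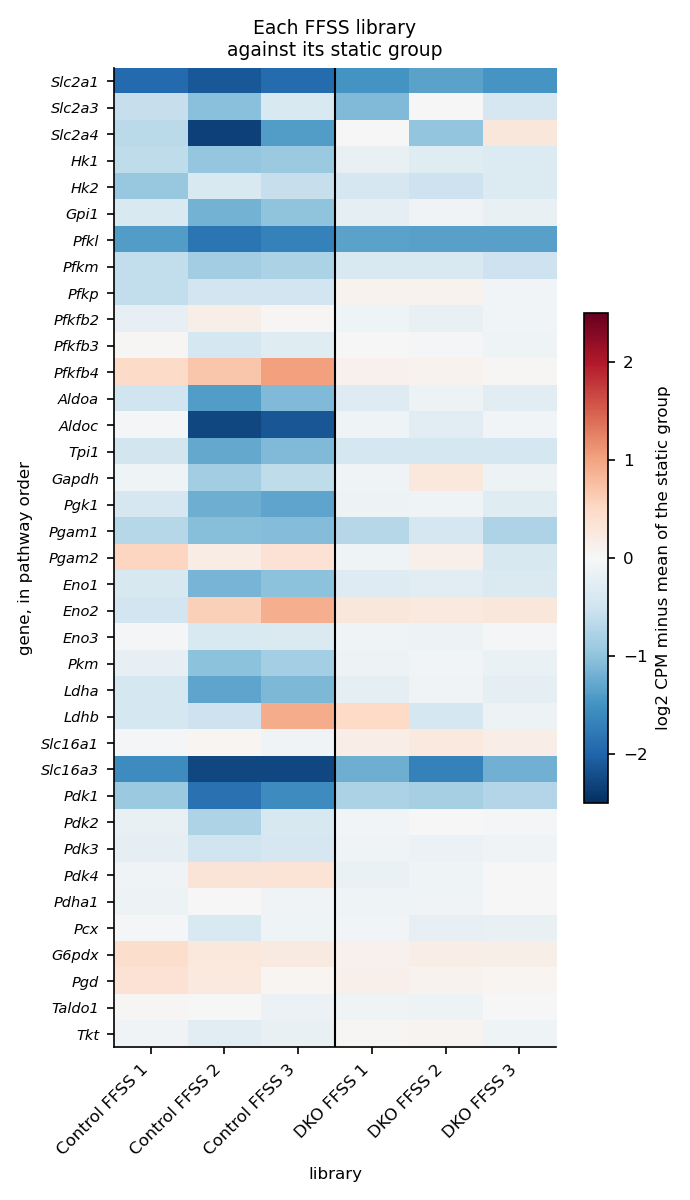
Log2 CPM of each FFSS library minus the mean of its static group (colour, blue lower and red higher) for the 37 genes tested (y axis, pathway order), in the 6 FFSS libraries (x axis). Slc2a1, Pfkl, Pdk1 and other genes, among them Hk1 and Pgam1, are blue in every library. The median over the genes is −0.38 in control FFSS replicate 1, −0.77 and −0.48 in replicates 2 and 3, and −0.11 to −0.13 in the DKO libraries.

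Promoters are shown for the called genes that have an entry in RefSeq (build GRCm38.p6, 250 bases before to 50 after the annotated start) and for Ldha, the most abundant of the lactate genes. Slc2a4 has no entry, nor have Slc2a3 and Slc16a7. Capitals mark the core of the hypoxia response element, ACGTG or GCGTG, read on either strand, so that CACGT and CACGC are the same cores on the other strand, and CACGTG holds one core on each. Coordinates are 1-based, sequences run 5′ to 3′ along the gene, and the more upstream of 2 starts is given for Pdk1 and Ldha.
Slc2a1, chr4:119108495-119108794, plus strand: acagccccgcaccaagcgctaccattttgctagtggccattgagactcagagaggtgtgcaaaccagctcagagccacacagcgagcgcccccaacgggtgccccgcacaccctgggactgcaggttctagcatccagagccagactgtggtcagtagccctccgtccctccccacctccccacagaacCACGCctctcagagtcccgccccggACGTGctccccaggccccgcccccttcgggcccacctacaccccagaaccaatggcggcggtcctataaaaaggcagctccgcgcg
Pfkl, chr10:78009758-78010057, minus strand: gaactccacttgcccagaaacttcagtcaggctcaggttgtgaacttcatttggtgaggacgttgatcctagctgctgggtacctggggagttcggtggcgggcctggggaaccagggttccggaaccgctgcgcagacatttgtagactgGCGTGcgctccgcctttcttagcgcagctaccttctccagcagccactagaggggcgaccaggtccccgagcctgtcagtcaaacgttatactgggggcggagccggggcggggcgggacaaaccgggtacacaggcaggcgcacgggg
Slc16a3, chr11:120948817-120949116, plus strand: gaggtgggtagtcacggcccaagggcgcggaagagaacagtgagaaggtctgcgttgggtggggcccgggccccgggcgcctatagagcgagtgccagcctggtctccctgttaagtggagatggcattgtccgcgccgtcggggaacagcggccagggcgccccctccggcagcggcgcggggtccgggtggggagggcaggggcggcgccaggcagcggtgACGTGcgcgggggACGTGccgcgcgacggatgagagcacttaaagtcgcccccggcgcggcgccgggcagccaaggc
Pdk1, chr2:71872974-71873273, plus strand: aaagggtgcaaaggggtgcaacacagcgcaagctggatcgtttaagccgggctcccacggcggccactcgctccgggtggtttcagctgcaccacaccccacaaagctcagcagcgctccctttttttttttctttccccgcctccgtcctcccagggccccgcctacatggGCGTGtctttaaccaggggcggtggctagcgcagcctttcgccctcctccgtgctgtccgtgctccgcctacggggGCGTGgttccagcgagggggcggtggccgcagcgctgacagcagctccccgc
Ldha, chr7:46845554-46845853, plus strand: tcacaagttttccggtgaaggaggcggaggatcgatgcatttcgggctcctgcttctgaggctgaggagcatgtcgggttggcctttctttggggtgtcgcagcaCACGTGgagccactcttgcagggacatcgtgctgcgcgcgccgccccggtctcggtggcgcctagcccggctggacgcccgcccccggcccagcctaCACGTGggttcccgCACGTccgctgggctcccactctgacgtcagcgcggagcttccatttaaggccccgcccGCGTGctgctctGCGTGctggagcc

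In Slc2a1 the cores begin at −61 and −36 from the start, in Slc16a3 at −27 and −14, and in Pdk1 at −78 and −2. The window of the other Pdk1 start (chr2:71874654-71874953) holds 0 cores, and that of the other Ldha start 2. Pfkl holds a single core, at −99. Ldha holds 7 matches, of which 2 pairs are the palindrome CACGTG. Over all 35 genes with an entry, 41 of 53 promoter windows (77.4%) held a core, against 43.8% of all 32851 windows of the same length. A core stood in 24 of 32 windows (75%) of the genes that fell with FFSS in control cells. For the others it was 17 of 21 (81.0%). Counted by gene, 18 of 20 and 13 of 15 held a core, where 12628 of all 27025 genes did. CACGTG stood in 13.2% of the windows and in 7.15% of all windows. It was in 9.4% of windows for the genes that fell and in 19.05% for the others. These differences were not tested, and the windows of all genes were not matched to the members in expression or base composition. A match in these letters is not a measured binding site.

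The same comparison was made in DKO cells. Here 4 of the 37 genes passed as lower (Slc2a1, Pfkl, Pgam1 and Pfkm) and 0 as higher, with 0.497% of all genes passing as lower and 0.376% as higher. Of these, 2 were called lower and 0 higher, where 0.0738% of all genes were called lower and 0.0134% higher. The 0 higher is that of the edgeR fit to all 12 libraries. DESeq2 gave 1 (Slc16a1), edgeR on the 6 DKO libraries alone gave 3 (Eno2, Slc16a1 and G6pdx), and edgeR with the share of reads outside genes in the model gave 2 (Slc16a1 and G6pdx), where 1.25%, 6.15% and 5.02% of all genes passed as higher. In the first fit 2 members with a positive log2 fold change, Slc16a1 and G6pdx, had an unadjusted p under 0.05. The median log2 fold change over the 37 genes was −0.12, and the summed share of reads of the 38 genes was 0.656 ± 0.0824% in DKO static and 0.568 ± 0.0171% in DKO FFSS libraries (SD, n = 3 each).

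Slc2a1 in DKO cells was at 126, 103 and 138 CPM in static and 43.6, 48.7 and 43.7 CPM in FFSS libraries. The DKO static level was thus in the range of the control FFSS level of 101 to 115 CPM or slightly above it, and FFSS lowered it further, 2.70-fold, with a log2 fold change of −1.43 (SE 0.10, adjusted p in edgeR = 1.14e-05). Pfkl was at 171, 125 and 191 CPM in static and 64.6, 63.6 and 63.6 CPM in FFSS libraries, a log2 fold change of −1.34 (SE 0.14, adjusted p in edgeR = 0.00183). For both genes the groups were well apart. Pgam1 (−0.63, adjusted p in edgeR = 0.0335) and Pfkm (−0.43, adjusted p in edgeR = 0.00941) fell by less and were not called. They no longer passed in 11 and 4 of 22 alternative fits. Without DKO static replicate 2 or 3, or DKO FFSS replicate 2 or 3, only Slc2a1 and Pfkl passed, 2 genes in place of 4, where 0.0600 to 0.133% of all genes passed as lower in place of 0.497%.

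Pdk1 and Ldha, which fell in control cells, did not pass in DKO cells. Pdk1 was at 80.6, 61.7 and 89.4 CPM in DKO static and 44.5, 43.6 and 46.2 CPM in DKO FFSS libraries. Its groups did not overlap, but its log2 fold change of −0.79 (SE 0.22) did not pass (adjusted p in edgeR = 0.142). Pdk1 passed as lower with DESeq2 and with the 6 DKO libraries alone, where 1.42% and 5.78% of all genes did. Ldha was at 1290.3, 1041 and 1317 CPM in static and 1029, 1138 and 1043 CPM in FFSS libraries, overlapping groups with a log2 fold change of −0.18 (SE 0.19). DKO static replicate 2 was the lowest of its group for Ldha, Pkm, Aldoa, Tpi1, Gapdh, Pgk1, Eno1 and Pfkl. Without control FFSS replicate 1, which shares the estimate of the spread with the DKO libraries, 8 genes passed as lower in DKO cells (Hk1, Hk2, Tpi1 and Pdk1 in addition) and 2 as higher (Eno2 and Slc16a1), where 5.66% and 4.83% of all genes did.

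Whether the effect of FFSS differed between the genotypes was tested as an interaction, the log2 fold change in DKO cells minus that in control cells. It was positive, that is, less of a fall in DKO cells, and passed for 3 genes, whereas 0 passed in the negative direction, where 1 had an unadjusted p under 0.05. Other fits with all libraries gave up to 2 negative: Pfkfb4 and G6pdx with library totals alone, G6pdx and Pgd with the share of reads outside genes in the model, and 1 gene each with DESeq2 and with no filter on low counts. Over all genes 2.28% passed in the positive and 1.68% in the negative direction. Slc2a1 differed by 0.56 (SE 0.13, adjusted p in edgeR = 0.0341), Hk1 by 0.56 (SE 0.11, adjusted p in edgeR = 0.0125) and Pfkp by 0.56 (SE 0.11, adjusted p in edgeR = 0.0125). Hk1 fell from 301, 301 and 289.6 to 192, 153 and 157 CPM in control cells, and was at 157, 157 and 161 CPM in DKO static and 139, 129 and 126 CPM in DKO FFSS libraries. Pfkp fell from 105, 111 and 104 to 70.0, 76.2 and 76.5 CPM in control cells, and was at 18.1, 15.7 and 18.5 CPM in DKO static and 18.5, 18.6 and 16.7 CPM in DKO FFSS libraries. In DKO cells Pfkp thus began from a 6.1-fold lower level and its groups overlapped, whereas those of Hk1 did not.

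None of the 3 was called, as each difference was less than 2-fold. Pfkp passed in all 21 alternative fits of the interaction, whereas Hk1 no longer passed in 1 and Slc2a1 in 13, with adjusted p up to 0.0972. The negative value nearest to passing was that of Pfkfb4, −0.67 (SE 0.18, adjusted p in edgeR = 0.0543). Members such as Ldha (0.72, SE 0.27, adjusted p in edgeR = 0.143) and Aldoa (0.71, SE 0.28, adjusted p in edgeR = 0.167) had larger differences with larger errors. Without DKO FFSS replicate 1, 1 gene passed in place of 3, where 0.853% of all genes passed in the positive direction in place of 2.28%. The largest shift came from 1 library. Without control FFSS replicate 1, 22 genes passed in the positive direction and 3 in the negative (Pfkfb4, Eno2 and Pdk4), where 19.9% and 17.7% of all genes did. Ldha then differed by 1.03, Pgk1 by 1.10 and Gpi1 by 0.92, whereas Pfkl (0.42, adjusted p in edgeR = 0.157), Hk2 (0.050) and Slc16a3 (0.96, adjusted p in edgeR = 0.257) did not pass. The 2 control FFSS libraries then left had a chi-square per degree of freedom of 6.60, the highest of the pairs without replicate 1.

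Most of the pathway was already lower in DKO than in control cells without any flow. In static cells 26 of the 37 genes passed as lower and 5 as higher, where 27.2% of all genes passed as lower and 27.0% as higher. The called genes were 16 lower and 2 higher, where 7.30% of all genes were called lower and 7.98% higher. With the share of reads outside genes in the model 10 were called lower and 3 higher, where 8.53% and 8.29% of all genes were: Aldoa, Tpi1, Gapdh, Pgk1 and Ldha then passed with less than a 2-fold change, and Slc2a4 did not pass. The median log2 fold change was −0.86 over the 37 genes and 0.010 over all genes. Of the 3 glucose transporters 3 were called lower, as was 1 of the 2 hexokinases, 5 of the 10 genes of upper glycolysis, 4 of the 8 of lower glycolysis, 2 of the 4 lactate genes tested and 1 of the 6 of pyruvate entry. Of the 4 pentose phosphate genes 0 were called, and 3 passed the test, Tkt as lower and Pgd and Taldo1 as higher.

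Slc16a3 differed most. Its 3 DKO static libraries held 5, 9 and 7 counts, that is 0.275, 0.494 and 0.389 CPM, against 65.9, 67.6 and 60.1 CPM in control static libraries. The fitted log2 fold change was −7.36 (SE 0.25, adjusted p in edgeR = 9.25e-11). Summed over the group, its normalised level in control static cells was 167 times that in DKO static cells (95% interval 109 to 270.5, exact, counting error only). Csnk1d, which overlaps it, was at 231 to 237 CPM in control static and 241 to 248 CPM in DKO static libraries. Slc16a1 was also lower in DKO static cells, at 82.8 to 88.8 CPM, by 0.86 on the log2 scale (SE 0.05, adjusted p in edgeR = 1.36e-08), but was not called.

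Slc2a3 was at 9.94, 7.55 and 7.11 CPM in control static and 0.825, 0.768 and 0.889 CPM in DKO static libraries, which gave a log2 fold change of −3.30 (SE 0.25, adjusted p in edgeR = 7.86e-08). Slc2a1 was 3.58-fold lower in DKO static cells, with a log2 fold change of −1.84 (SE 0.09, adjusted p in edgeR = 2.17e-09). Pfkp was 6.1-fold lower (−2.61, SE 0.08, adjusted p in edgeR = 1.56e-11). Pfkp shares 372 exon bases with Pitrm1, a mitochondrial peptidase gene on the other strand, which was itself lower in DKO static cells by 0.73 on the log2 scale. Pfkl was 3.19-fold lower (−1.67, SE 0.14, adjusted p in edgeR = 1.08e-06), but Pfkm, at 96.9 to 101 CPM against 104 to 109 CPM, did not pass (−0.12, SE 0.07).

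Gpi1 was at 694, 720.3 and 691 CPM in control static and 181, 148 and 188 CPM in DKO static libraries, 4.07-fold lower (log2 fold change −2.02, SE 0.18, adjusted p in edgeR = 4.01e-06). Another 7 enzymes from aldolase to lactate dehydrogenase were called with log2 fold changes between −1.43 for Pgk1 and −1.12 for Tpi1. The others were Aldoa (−1.27), Gapdh (−1.24), Pgam1 (−1.38), Eno1 (−1.39) and Ldha (−1.18), whereas Pkm, the most abundant, passed with −0.91 but was not called. Pdk1 (−1.55), Hk2 (−1.24) and Slc2a4 (−1.24) completed the 16. Each had all 3 DKO static libraries below all 3 control static libraries. These genes were called on the same libraries, so this is not separate evidence.

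A few genes were higher in DKO cells. Pdk2, a PDH kinase found in most tissues (ENSMUSG00000038967, mm9 chromosome 11, 94887572 to 94902668), was at 10.8, 14.6 and 11.4 CPM in control static and 28.7, 27.2 and 30.4 CPM in DKO static libraries. It was 2.34-fold higher, with a log2 fold change of 1.23 (SE 0.13, adjusted p in edgeR = 2.39e-06). Ldhb was at 0.264, 0.625 and 0.369 CPM in control static and 1.70, 1.26 and 1.61 CPM in DKO static libraries, which gave a log2 fold change of 1.84 (SE 0.41, adjusted p in edgeR = 0.00145). These are 5 to 12 counts against 23 to 31. Pgam2 (0.88), Taldo1 (0.38) and Pgd (0.21) passed as higher without being called. Pgam2 is a muscle form, and of the 6 skeletal muscle markers only Actn3 had a mean above 1 CPM, with the sum of all 6 at 1.51 to 2.36 CPM in control and 4.62 to 5.67 CPM in DKO libraries.

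The genotypes were then compared under FFSS. In FFSS cells 24 of the 37 genes passed as lower in DKO cells and 4 as higher, where 29.6% of all genes passed as lower and 27.0% as higher. The called genes were 8 lower (Slc2a1, Slc2a3, Hk2, Gpi1, Pfkl, Pfkp, Pgam1 and Slc16a3) and 2 higher (Pdk2 and Ldhb), where 8.96% of all genes were called lower and 8.25% higher. The median log2 fold change was −0.55, against −0.051 over all genes. Scaling by library totals alone moved the second to −0.25, with 28 of the 37 passing as lower and 3 as higher, and 6294 and 2762 of all genes in place of 4414 and 4024. This comparison shares its libraries with those of FFSS, so that their values are not independent of each other.

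Slc2a1 in FFSS cells was 2.43-fold lower in DKO than in control libraries, with a log2 fold change of −1.28 (SE 0.10, adjusted p in edgeR = 8.1e-08). Pfkp had −2.05 (SE 0.08, adjusted p in edgeR = 1.18e-10) and Pfkl −1.39 (SE 0.14, adjusted p in edgeR = 5.79e-06). Slc2a3 was at 5.50, 3.95 and 6.34 CPM in control FFSS and 0.387, 0.833 and 0.615 CPM in DKO FFSS libraries, a log2 fold change of −3.10 (SE 0.27, adjusted p in edgeR = 3.77e-07). Gpi1 was at 540.4, 310.0 and 348 CPM in control FFSS and 146, 162 and 152 CPM in DKO FFSS libraries, 2.61-fold lower in DKO cells (−1.38, SE 0.18, adjusted p in edgeR = 6.48e-05). Its groups did not overlap, and control FFSS replicate 1 was again the highest. Of the genes called higher, Pdk2 was at 10.8, 7.23 and 9.31 CPM in control FFSS and 27.6, 28.6 and 27.7 CPM in DKO FFSS libraries, 3.06-fold higher (1.62, SE 0.13, adjusted p in edgeR = 2.15e-07). Ldhb was at 0.308, 0.293 and 0.792 CPM in control FFSS and 2.16, 1.13 and 1.40 CPM in DKO FFSS libraries, which are 6 to 16 counts against 19 to 39 (1.74, SE 0.39, adjusted p in edgeR = 0.00174). Slc16a3 had a fitted log2 fold change of −6.67 (SE 0.32, adjusted p in edgeR = 1.92e-09). The DKO FFSS libraries held 3, 2 and 3 counts of Slc16a3, at the floor, and the summed level in control FFSS cells was 106 times that in DKO FFSS cells (95% interval 53.4 to 246, exact, counting error only). Between DKO static and DKO FFSS cells the ratio was 2.55 (95% interval 1.08 to 6.65), and the test did not pass (adjusted p in edgeR = 0.424).

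Ldha (−0.46, SE 0.19) and Pkm (−0.37, SE 0.18) did not differ past the threshold between the genotypes under FFSS, with adjusted p in edgeR of 0.0567 and 0.104. For both, control FFSS replicate 1 was the highest of the 6 libraries and the 2 genotypes overlapped otherwise. Ldha nevertheless passed as lower in 7 of 22 alternative fits: with library totals alone, upper quartile scaling, another filter on low counts, DESeq2, the share of reads outside genes in the model, and without control FFSS replicate 2 or 3. Pkm did so in 3, with library totals alone, with that share in the model and without control FFSS replicate 2. Without replicate 1 Ldha had −0.15 and Pkm −0.084, 22 genes passed as lower and 7 as higher, and 34.0% and 31.0% of all genes did so. Aldoc, at 41.0 to 47.2 CPM in DKO FFSS libraries, was among those 7, with a log2 fold change of 1.88.

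The make-up of enzyme families, taken as each gene's share of the summed CPM per kb of its family, shifted along with these changes. These shares are descriptions with no test. Pfkl made up 71.7 ± 0.664% of the phosphofructokinase sum in control static, 56.8 ± 2.51% in control FFSS, 51.5 ± 5.25% in DKO static and 35.9 ± 1.11% in DKO FFSS libraries (SD, n = 3 each). The share of Pfkm was 21.4 ± 0.701%, 31.2 ± 0.710%, 45.9 ± 5.18% and 59.4 ± 0.977% in the same order, while its own level was highest in control static cells, at 35.1 ± 0.795, 20.8 ± 1.87, 32.4 ± 0.633 and 24.1 ± 1.201 CPM per kb. By share, the order of the subunits was reversed between control static and DKO FFSS cells, while the family sum went from 164 ± 5.54 to 40.6 ± 1.38 CPM per kb. Pfkp was a minor form throughout, between 2.51 and 13.4% of the sum in single libraries.

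For export of lactate, Slc16a3 made up 25.7 ± 0.685% of the monocarboxylate transporter sum in control static, 8.01 ± 2.25% in control FFSS, 0.375 ± 0.114% in DKO static and 0.129 ± 0.0274% in DKO FFSS libraries, with Slc16a1 making up nearly all the rest. Among the PDH kinases Pdk3 was the largest in the mean of each group, between 41.1 and 43.8%. Pdk1 went from 31.3 ± 0.432% in control static to 16.1 ± 4.82% in control FFSS, 16.2 ± 1.75% in DKO static and 10.7 ± 0.107% in DKO FFSS libraries. Pdk2 made up 4.19 ± 0.674% and 4.24 ± 0.625% in the control groups and 14.9 ± 0.441% and 16.4 ± 0.586% in the DKO groups, a wider gap between the genotypes than between static and FFSS cells.

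Pfkfb4 rose from 27.4 ± 2.64% to 41.3 ± 6.28% of the PFKFB sum with FFSS in control cells, and was at 29.2 ± 2.06% and 31.3 ± 0.442% in DKO static and FFSS libraries. The shares of Hk1 and Hk2 in control FFSS libraries varied between replicates, with Hk1 at 65.4, 50.4 and 54.5%, a wider range than the 59.5 to 61.3% of control static libraries. Ldha made up at least 99.6% of the lactate dehydrogenase sum in every library. Its ratio to Ldhb per kb was 3923 ± 1578 in control static and 421 ± 19.6 in DKO static libraries, and the spread of the first follows from the 5 to 12 counts of Ldhb.

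**Figure D4:**
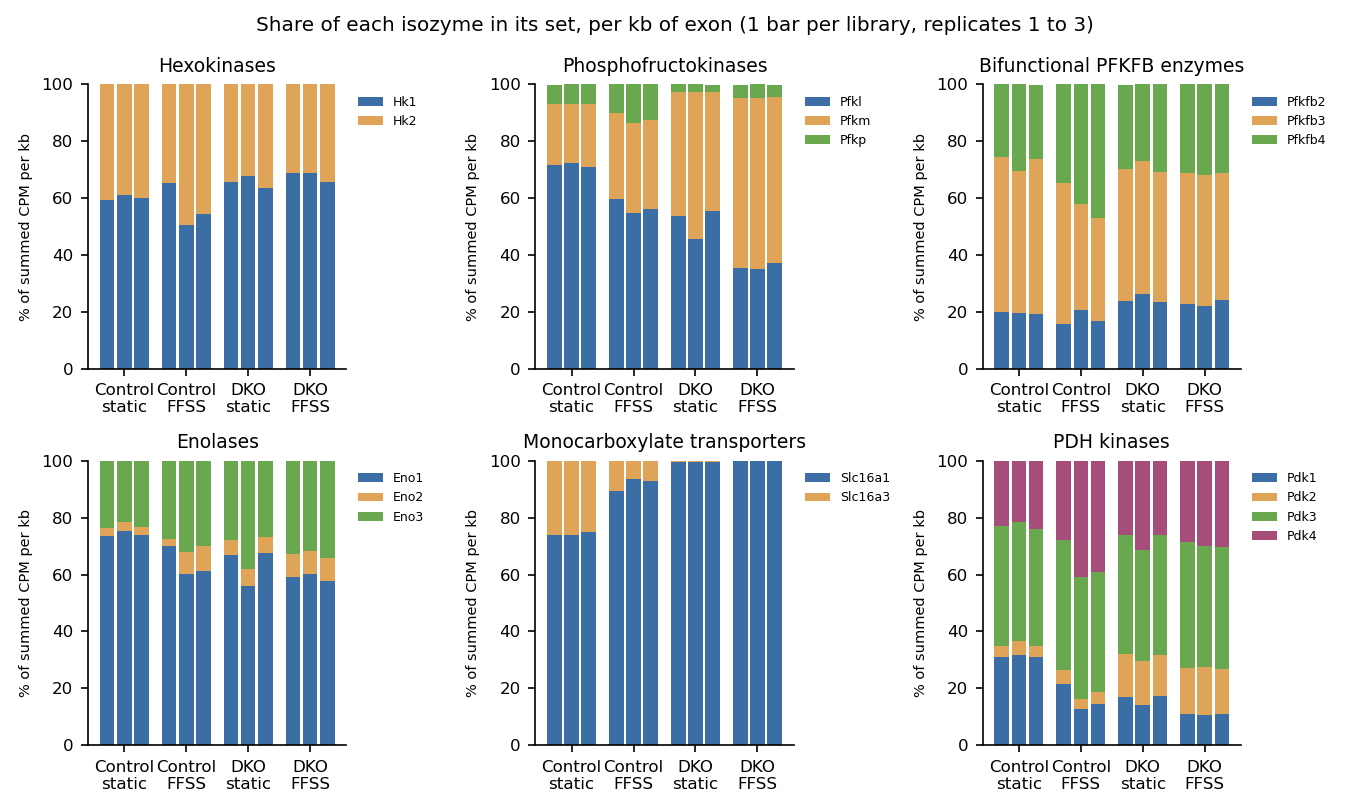
Share of each gene in the summed CPM per kb of exon of its family (y axis, %), 1 bar per library, replicates 1 to 3 within each group (x axis). Pfkl falls from 71.7% in control static to 35.9% in DKO FFSS libraries as the share of Pfkm rises, Slc16a3 all but disappears in DKO libraries, and Pdk2 has a larger share in DKO than in control libraries.

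Other genes of sugar metabolism, taken as a list of 61 of which 48 were tested, were read beside the members. With FFSS in control cells 13 of the 48 passed as lower and 8 as higher, where 18.1% and 17.7% of all genes did, and the median log2 fold change was −0.096. The single called gene was Pygl, the liver-type glycogen phosphorylase (−1.29). In DKO against control static cells 16 passed as lower and 14 as higher (27.2% and 27.0% of all genes), and 6 and 7 of them were called (7.30% and 7.98% of all genes). The lowest were Pygl (−4.29) and Slc2a9 (−2.32), a urate transporter of the glucose transporter family. The highest were Hk3 (3.48), a hexokinase with 7 counts over the control static group, and Txnip (3.00), whose product restrains glucose uptake. Txnip was at 6.87 to 8.54 CPM in control static and 51.7 to 83.8 CPM in DKO static libraries, the direction opposite to that of Slc2a1.

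HIF target genes outside glycolysis, a list of 19, were read beside the members. With FFSS in control cells 16 of 19 passed as lower, 11 of them called, and 1 passed as higher (of all genes 18.1% passed as lower, 1.97% were called lower and 17.7% passed as higher), with a median log2 fold change of −1.14. In DKO cells 6 passed as lower (0.497% of all genes), 4 of them called (0.0738%), and 0 as higher (0.376%), with a median of −0.33. In static DKO against control cells 12 passed as lower and 3 as higher (27.2% and 27.0% of all genes). Egln3, a prolyl hydroxylase that marks HIF for degradation, was at 351 to 379 CPM in control static, 27.8 to 51.5 in control FFSS, 24.6 to 37.3 in DKO static and 5.54 to 7.02 in DKO FFSS libraries. The transcripts of the subunits did not share one direction by genotype: Hif1a was at 258 to 275 CPM in control static and 389 to 404 CPM in DKO static libraries, and Arnt at 265 to 272 and 132 to 135 CPM. With FFSS in control cells Hif1a (−0.24) and Arnt (−0.31) passed as lower, and Epas1 (−0.63) did not pass.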

How the data were processed

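RNA of 12 libraries (4 groups of 3) was sequenced as single-end 50-base reads on a BGISEQ-500. The deposited files hold an unnormalised count for each Ensembl gene ID, which the authors made by alignment to mm9 with STAR and counting with HTSeq. The file names say that strand was not used. Here, genes with 0 counts in 2 or more libraries were removed, as in the study's methods, which left 14904 of 37583 IDs. edgeR 4.0.16 in R 4.3.3 was used with TMM scaling and 1 quasi-likelihood fit over all 4 groups, and p-values were adjusted over all genes tested. A gene passed at an adjusted p under 0.05 and was called with, in addition, a change of more than 2-fold. Printed CPM are counts divided by the TMM-scaled library size. The code was tested on simulated data. There were 22 alternative fits, including DESeq2 1.42.0, limma 3.58.1 (voom), other scaling and filters, and each library left out. Libraries of 17.6 to 19.2 M reads put 3 counts at 0.156 to 0.171 CPM. Members, gene lists and tests were chosen with earlier results of these data known. All members are named, with the value in every library for those called, up to the 6 highest and 6 lowest of a comparison, or passing the interaction, and genes overlapping a member are named where they hold over 10% of its counts. Pygl, Slc2a9, Hk3, Txnip and Egln3 were named after their values were seen. Promoters came from RefSeq (GRCm38.p6) and gene positions from mm9, and no coordinate was converted between the builds.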

Additional observations from a re-analysis of the deposited data

Results flagged for a closer look

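In 3 genes the effect of FFSS differed between the genotypes by the test of the difference itself (interaction, edgeR with adjustment over all 14904 genes). The log2 fold change in DKO cells minus that in control cells was 0.56 for Slc2a1 (SE 0.13, adjusted p = 0.0341), 0.56 for Hk1 (SE 0.11, adjusted p = 0.0125) and 0.56 for Pfkp (SE 0.11, adjusted p = 0.0125). Every control FFSS library of the 3 genes lay below every control static library. In DKO cells the same held for Slc2a1 and Hk1, and the groups of Pfkp overlapped. Slc2a1 no longer passed in 13 of 21 alternatives, Hk1 in 1 and Pfkp in 0, and for Pfkp the highest adjusted p was 0.0485.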

How the results depend on the processing

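Of the values of members that passed a test, 0 reversed in any of the 22 alternative fits (21 for the interaction). Members no longer passed in 44 of 550 values for FFSS in control cells, 15 of 88 for FFSS in DKO cells and 14 of 63 for the interaction. For DKO against control this was so in 8 of 682 values in static cells and 20 of 616 in FFSS cells. With each library left out in turn, the members passing numbered 2 to 5 higher and 17 to 26 lower for FFSS in control cells, 0 to 2 higher and 2 to 8 lower for FFSS in DKO cells, 1 to 22 positive and 0 to 3 negative for the interaction, 4 to 5 higher and 25 to 28 lower for DKO against control in static cells, and 3 to 7 higher and 21 to 27 lower in FFSS cells. Over all genes the shares passing were 11.9 to 26.7% higher and 12.3 to 28.3% lower, 0.0267 to 4.83% and 0.0600 to 5.66%, 0.818 to 19.9% positive and 0.347 to 17.7% negative, 23.9 to 31.9% higher and 24.3 to 31.9% lower, and 24.2 to 31.0% and 25.6 to 34.0%, in the same order. The upper ends for both FFSS effects and the interaction came without control FFSS replicate 1.

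With the share of reads outside genes as a covariate, 10 members passed as lower and 2 as higher for FFSS in control cells (8.51% and 6.86% of all genes), 7 and 2 for FFSS in DKO cells (4.93% and 5.02% of all genes, against 0.497% and 0.376% without it), and 3 positive and 2 negative for the interaction (3.76% and 2.10%). The called members in DKO against control static cells then numbered 10 lower and 3 higher in place of 16 and 2, where 8.53% and 8.29% of all genes were called in place of 7.30% and 7.98%. The 6 libraries of a comparison alone gave 7 lower and 3 higher for FFSS in DKO cells (5.78% and 6.15% of all genes), and over all genes 1234 lower and 1229 higher for FFSS in control cells in place of 2705 and 2633, and 861 and 916 for FFSS in DKO cells in place of 74 and 56. DESeq2 gave 6 lower and 1 higher for FFSS in DKO cells (1.42% and 1.25% of all genes), and 5 positive and 1 negative for the interaction (4.72% and 2.82%). Library totals alone gave 2 negative for the interaction, and 239 positive and 597 negative over all genes in place of 340 and 251, and no filter on low counts gave 1 negative. With more than a 2-fold change required, the counts were 0 higher and 5 lower for FFSS in control cells, 2 lower for FFSS in DKO cells, 0 for the interaction, 2 higher and 16 lower for DKO against control static cells, and 2 higher and 8 lower in FFSS cells. The cause of these shifts was not tested.

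Libraries of the same replicate number did not deviate together (mean correlation 0.0023 over 18 pairs, −0.060 to 0.063). The labels do not say whether equally numbered libraries were handled together, and these correlations cannot settle it. A fit with a replicate block gave 22 lower and 3 higher for FFSS in control cells, 3 lower and 0 higher for FFSS in DKO cells, 2 positive for the interaction, and between the genotypes 26 lower and 5 higher in static and 24 lower and 4 higher in FFSS cells. Over all genes the shares with the block were 17.9% lower and 16.6% higher, 0.268% and 0.201%, 1.83% positive, 27.0% and 26.6%, and 29% and 26.8%, in the same order. Depth limits Slc16a3 in DKO cells (2 to 9 counts a library) and Ldhb in control cells (5 to 16 counts).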
